A study of Mus musculus with 20 samples.

Results

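The pentose phosphate pathway was described through the 8 genes that encode its enzymes, G6pdx, H6pd, Pgls, Pgd, Rpia, Rpe, Tkt and Taldo1, in the liver transcriptome of 20 mice. The members were found by their gene symbols, and all 8 were present among the 45306 genes of the table and passed the filter on low counts, which left 15616 genes for testing. The mice formed 4 groups of 5, each mouse giving 1 library: wild-type mice kept at 24 °C (Control), wild-type mice with cold exposure (CE), Sirt2 knockout mice at 24 °C (Sirt2-/-) and Sirt2 knockout mice with cold exposure (Sirt2-/-/CE). Cold exposure meant 4 °C for 3 h per day over 3 weeks, and the mice were 5 weeks of age when they were divided into groups. All mice had a C57BL/6 background. The knockout was made by injecting a ribonucleoprotein against exons 5 to 7 of Sirt2 into fertilized eggs, so it was not restricted to hepatocytes, and the number of founder lines was not stated. Mice are named below by their replicate numbers, with 1 to 5 in Control, 6 to 10 in CE, 11 to 15 in Sirt2-/- and 16 to 20 in Sirt2-/-/CE.

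The pathway branches from glycolysis at glucose 6-phosphate. Its oxidative branch, catalyzed by glucose-6-phosphate dehydrogenase, lactonase and 6-phosphogluconate dehydrogenase, reduces NADP to NADPH and ends in ribulose 5-phosphate, and its nonoxidative branch converts pentose phosphates reversibly into ribose 5-phosphate for nucleotides or back into intermediates of glycolysis. In liver, the NADPH serves fatty acid and cholesterol synthesis and the regeneration of reduced glutathione.

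The promoter windows of the oxidative genes G6pdx and Pgd and of the nonoxidative gene Tkt are shown. They were chosen because Pgd correlated with G6pdx and with Tkt between mice by Pearson's r. By Spearman's rho, the adjusted permutation p was 0.0571 for each of these pairs. Each window runs from 250 bases before to 50 bases after a RefSeq start on build GRCm38.p6 and is written 5′ to 3′ on the strand of the gene, and capitals mark a match to the core of the antioxidant response element. They lie at chrX:74428831-74429130 on the minus strand (G6pdx), at chr4:149166656-149166955 and chr4:149166033-149166332 on the minus strand (the first and the second start of Pgd) and at chr14:30548881-30549180 on the plus strand (Tkt).
G6pdx: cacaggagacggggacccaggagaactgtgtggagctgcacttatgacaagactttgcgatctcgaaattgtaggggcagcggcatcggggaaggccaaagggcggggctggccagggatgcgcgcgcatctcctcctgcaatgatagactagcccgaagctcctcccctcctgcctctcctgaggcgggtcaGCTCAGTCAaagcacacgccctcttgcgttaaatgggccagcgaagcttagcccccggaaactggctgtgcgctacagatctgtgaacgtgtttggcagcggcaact
Pgd, first start: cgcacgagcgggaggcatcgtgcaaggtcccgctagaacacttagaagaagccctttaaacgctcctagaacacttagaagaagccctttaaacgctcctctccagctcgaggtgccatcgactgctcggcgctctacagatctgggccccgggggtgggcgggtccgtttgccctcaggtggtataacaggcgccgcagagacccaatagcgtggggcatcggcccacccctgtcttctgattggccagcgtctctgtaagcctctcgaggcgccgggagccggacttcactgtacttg
Pgd, second start: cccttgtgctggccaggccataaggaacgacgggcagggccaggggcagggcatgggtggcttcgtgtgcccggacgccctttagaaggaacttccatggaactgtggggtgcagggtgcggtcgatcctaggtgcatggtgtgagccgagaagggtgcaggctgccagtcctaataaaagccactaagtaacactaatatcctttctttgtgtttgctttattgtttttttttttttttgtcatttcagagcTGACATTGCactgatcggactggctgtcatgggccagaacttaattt
Tkt: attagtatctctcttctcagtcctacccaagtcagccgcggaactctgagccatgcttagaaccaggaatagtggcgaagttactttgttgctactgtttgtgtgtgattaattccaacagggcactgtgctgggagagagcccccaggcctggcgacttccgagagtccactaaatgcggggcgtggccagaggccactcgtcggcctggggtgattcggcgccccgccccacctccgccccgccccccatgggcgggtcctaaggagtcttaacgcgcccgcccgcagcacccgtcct
In 9 windows that matched the 8 members, 2 held the core, searched as TGACNNNGC on both strands: that of G6pdx, where it began 57 bases before the start (position -57), and that of the second start of Pgd, where it began at base 4 of the transcript. Over all 32851 windows of the same length, 12.4% held it. The E-box CACGTG and the sterol response element TCACNCCAC, present in 7.15% and 1.24% of all windows, had no match in the windows of the members. No 2 of these motifs overlapped in a member window, and a match of letters says nothing about binding. On GRCm38 in the GENCODE annotation, the genes on the minus strand lie with G6pdx at chrX:74409483-74429194, H6pd at chr4:149979475-150009023, Pgd at chr4:149149991-149166771 and Rpia at chr6:70765720-70792232. Those on the plus strand lie with Pgls at chr8:71592176-71601092, Rpe at chr1:66700831-66719805, Tkt at chr14:30548359-30574720 and Taldo1 at chr7:141392199-141402968.

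Total counts ranged from 35499796 to 53917339 per library. Sirt2 itself was 21.3 ± 1.00 FPKM (fragments scaled to gene length and library depth) in Control and 12.1 ± 2.54 in Sirt2-/- (SD, n = 5 each), and 23.2 ± 1.76 in CE and 11.3 ± 1.17 in Sirt2-/-/CE (SD, n = 5 each). The count covers the whole gene, of which the knockout targets a few exons, and all 10 knockout libraries lay below all 10 wild-type libraries, with log2 fold changes of -0.94 between Sirt2-/- and Control (edgeR adjusted p = 0.0145) and -1.11 between Sirt2-/-/CE and CE (edgeR adjusted p = 0.0043). The 5 hepatocyte markers found summed to between 41000 and 77600 FPKM per library, and the 5 skeletal muscle markers summed to between 0.264 and 1.28, with Ckm and Tnnc2 at 0 in every library. A length score, the median centred log2 CPM (counts scaled to library size) of the 20% of genes with the shortest exon length minus that of the 20% with the longest, lay between -0.441 and 0.379 in 18 libraries and reached 0.569 in Sirt2-/- replicate 14 and 1.09 in Sirt2-/-/CE replicate 16. A clock score, which subtracted the mean centred log2 CPM of Arntl, Clock and Npas2 from that of Ciart, Dbp, Nr1d2, Per3 and Tef, was 1.33 to 3.36 in Control and fell below -4 in CE replicate 9, Sirt2-/- replicates 14 and 15 and Sirt2-/-/CE replicate 19. In whole liver, fewer cells of one type and less RNA per cell cannot be told apart.

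The members spanned a wide range of levels per length. H6pd had the highest mean, 72.1 FPKM over the 20 mice, followed by Taldo1 with 65.9, Pgls with 37.1 and Tkt with 29.5. Pgd had a mean of 14.7 FPKM and Rpe of 9.52, while G6pdx and Rpia were lowest with 1.82 and 1.68. H6pd ranked first in 16 of the 20 mice and Taldo1 ranked second in 16, and in no mouse did G6pdx or Rpia rank above the seventh place. H6pd and Taldo1 overlapped in their ranges, as did Pgls and Tkt, and G6pdx and Rpia. Pgd, with 7.91 to 24.1 FPKM, and Rpe, with 7.48 to 12.04, also overlapped, but Rpe lay below the lowest mouse of Tkt, 18.3 FPKM.

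**Figure D1:**
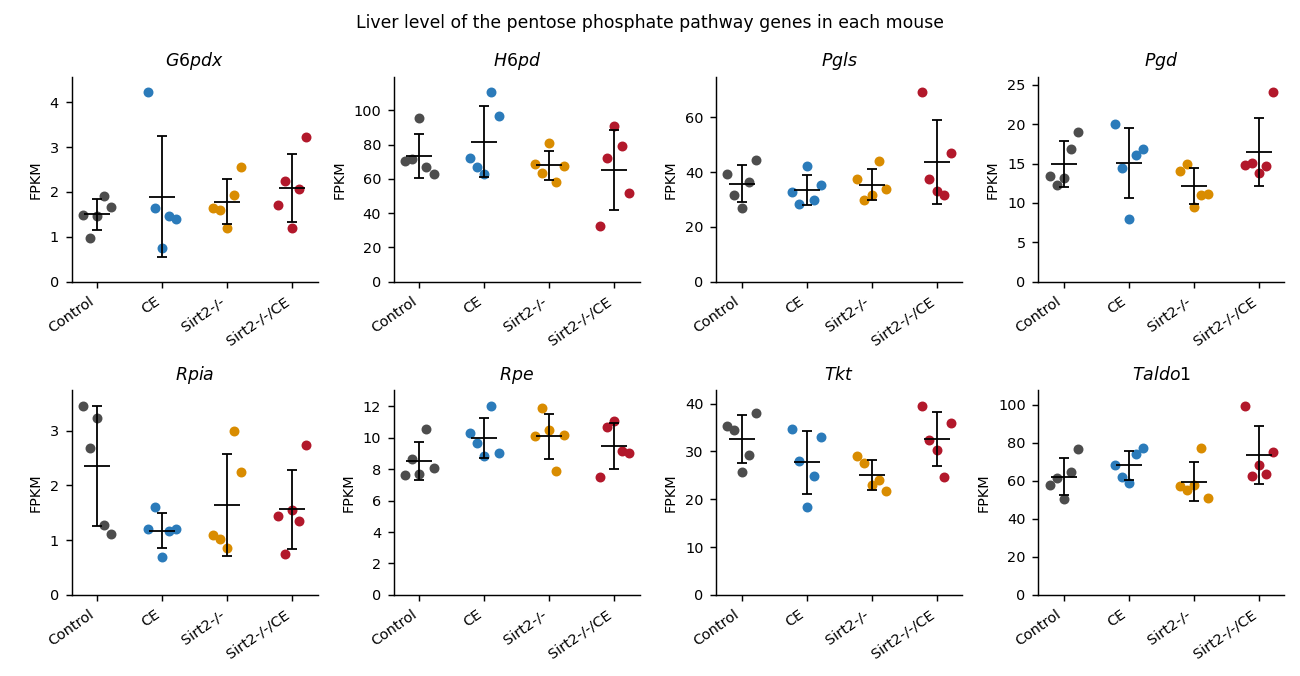
FPKM of each of the 8 members by group, with 1 point per mouse and the mean and SD of the 5 mice as black lines. The groups overlapped for every member, and single mice stood high for G6pdx in CE (4.22 FPKM), Pgls in Sirt2-/-/CE (69.2 FPKM) and Pgd in Sirt2-/-/CE (24.1 FPKM).

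No member was called in any comparison by edgeR's quasi-likelihood test at an adjusted p under 0.05, and no member had groups without overlap of CPM. The share of all 15616 genes called was 0.0064% for CE against Control, 0.89% for Sirt2-/- against Control, 0.0% for Sirt2-/-/CE against Sirt2-/- and 0.0128% for Sirt2-/-/CE against CE. It was 0.186% for the genotype averaged over both treatments, 0.0% for cold averaged over both genotypes and 0.0% for the interaction of genotype and cold. The groups did not overlap for 3.04%, 3.61%, 0.743% and 1.22% of all genes in the 4 pairwise comparisons, in the same order. At an unadjusted p under 0.05, the members counted 1 of 8 in CE against Control (10.7% of all genes), 2 of 8 in Sirt2-/- against Control (14.9%), 3 of 8 in Sirt2-/-/CE against Sirt2-/- (7.25%) and 0 of 8 in Sirt2-/-/CE against CE (6.09%). DESeq2 likewise called 0 members in each comparison. At an unadjusted p under 0.05 by edgeR, members numbered 1 of 8 for genotype (13.8%), 1 of 8 for cold (9.48%) and 1 of 8 for the interaction (8.34%).

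G6pdx encodes the X-linked cytosolic enzyme that commits glucose 6-phosphate to the pathway. Its level in Control replicates 1 to 5 was 1.49, 0.980, 1.47, 1.91 and 1.66 FPKM, and in CE replicates 6 to 10 it was 4.22, 1.64, 0.741, 1.47 and 1.40. In Sirt2-/- replicates 11 to 15 it was 1.65, 1.59, 1.20, 1.92 and 2.55 FPKM, and in Sirt2-/-/CE replicates 16 to 20 it was 1.70, 2.25, 1.19, 2.07 and 3.21. CE replicate 6 was the highest and CE replicate 8 the lowest of the 20 mice, so that the CE group alone spanned the range of all others. The log2 fold change between CE and Control was 0.26 (95% interval -0.47 to 0.98, edgeR adjusted p = 0.866), and without CE replicate 6 it was -0.24. The fold changes of G6pdx in the other pairwise comparisons were 0.09 for Sirt2-/- against Control, 0.27 for Sirt2-/-/CE against Sirt2-/- and 0.10 for Sirt2-/-/CE against CE, all on the log2 scale and all with intervals that reached at least 0.81 above 0 and 0.45 below it. Between Sirt2-/-/CE and Sirt2-/-, the value was 0.0034 without Sirt2-/-/CE replicate 20 and 0.07 with library quality weights in limma voom. G6pdx shares 418 of its 3080 exon bases with Ikbkg on the opposite strand, Ikbkg held 77.6% to 96.5% of the counts of the pair, and no source states whether counting used strand, so a part of these counts may belong to either gene (Ikbkg was chosen after its values were seen).

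H6pd encodes hexose-6-phosphate dehydrogenase of the endoplasmic reticulum, which supplies NADPH to the lumen. Its level was 62.6 to 95.6 FPKM in Control, 62.6 to 111 in CE, 58.0 to 81.2 in Sirt2-/- and 32.2 to 90.6 in Sirt2-/-/CE. The lowest value, 32.2 FPKM, belonged to Sirt2-/-/CE replicate 16, the library with the highest length score. Between Sirt2-/-/CE and CE, the log2 fold change of H6pd was -0.41 (95% interval -0.84 to 0.01, edgeR adjusted p = 0.822), and for genotype averaged over both treatments it was -0.33 (95% interval -0.63 to -0.03, edgeR adjusted p = 0.31). The former was -0.27 without Sirt2-/-/CE replicate 16, and with library quality weights in limma voom both were smaller, at -0.18 and -0.20. Between CE and Control it was 0.14, or 0.03 without CE replicate 9 and 0.26 without Control replicate 3, and between Sirt2-/- and Control it was -0.25, or -0.13 without Control replicate 3.

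Pgls encodes 6-phosphogluconolactonase, which opens the lactone made by the dehydrogenase. Its level was 27.0 to 44.5 FPKM in Control, 28.2 to 42.1 in CE, 29.8 to 44.2 in Sirt2-/- and 31.8 to 69.2 in Sirt2-/-/CE. The groups overlapped, and the mean of Sirt2-/-/CE, 43.6 ± 15.5 FPKM (SD, n = 5), contained the 69.2 FPKM of replicate 16. The log2 fold change between Sirt2-/-/CE and Sirt2-/- was 0.39 (95% interval -0.05 to 0.83, edgeR adjusted p = 0.724), and without replicate 16 it was 0.13. It was 0.14 with library quality weights in limma voom and 0.18 with the length score as a covariate. Of 3770 exon bases of Pgls, 776 are shared with Fam129c on the same strand, which held at most 3.34% of the counts of the pair.

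Pgd encodes 6-phosphogluconate dehydrogenase, the enzyme of the second NADPH-forming step. Its level was 13.5, 12.2, 13.1, 16.9 and 19.04 FPKM in Control replicates 1 to 5 and 20.1, 14.5, 7.91, 16.1 and 16.8 in CE replicates 6 to 10. It was 14.1, 14.98, 9.44, 11.04 and 11.2 FPKM in Sirt2-/- replicates 11 to 15 and 14.8, 15.1, 13.8, 14.6 and 24.1 in Sirt2-/-/CE replicates 16 to 20. Sirt2-/- replicates 13, 14 and 15 lay below all Control mice, while replicates 11 and 12 lay within the Control range. The log2 fold change between Sirt2-/- and Control was -0.45 (95% interval -0.89 to -0.01, edgeR adjusted p = 0.32). Between Sirt2-/-/CE and Sirt2-/- it was 0.53 (95% interval 0.09 to 0.97, edgeR adjusted p = 0.598), and without Sirt2-/-/CE replicate 20 it was 0.34. With library quality weights in limma voom, these values for Pgd were -0.20 and 0.23. Between CE and Control it was 0.01, and between Sirt2-/-/CE and CE it was 0.07.

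Rpia encodes ribose 5-phosphate isomerase, which forms the sugar of nucleotides. Its level was 3.46, 2.69, 3.23, 1.27 and 1.12 FPKM in Control replicates 1 to 5, and 1.21, 1.60, 0.695, 1.16 and 1.19 in CE replicates 6 to 10. It was 1.09, 1.01, 0.861, 2.98 and 2.25 FPKM in Sirt2-/- replicates 11 to 15 and 1.45, 0.751, 1.55, 1.35 and 2.73 in Sirt2-/-/CE replicates 16 to 20. Control held 3 mice at 2.69 or above and 2 at 1.27 or below, Sirt2-/- held 2 mice at 2.25 or above and 3 at 1.09 or below, and every CE mouse lay at 1.60 or below. CE against Control gave a log2 fold change of -0.98 (95% interval -1.80 to -0.16), with an unadjusted p = 0.0219 and an adjusted p = 0.372 by edgeR, and it ranged from -1.15 to -0.82 when 1 mouse was left out. Between Sirt2-/- and Control it was -0.68 (95% interval -1.49 to 0.14, edgeR adjusted p = 0.439). With library quality weights in limma voom, it was -1.22 (adjusted p = 0.0347), the only one of the settings tried in which a member was called. The high Sirt2-/- mice, replicates 14 and 15, were those with the lowest clock scores, -5.72 and -6.48. CE replicate 9 and Sirt2-/-/CE replicate 19, with clock scores of -4.52 and -4.69, had 1.16 and 1.35 FPKM. After subtraction of group means, Rpia and the clock score had r = -0.417 (adjusted permutation p = 0.287). With the clock score as a covariate, the log2 fold change between Sirt2-/- and Control was -1.26 (edgeR adjusted p = 0.503). Without Sirt2-/- replicate 14 it was -1.01. On log2(FPKM + 1) in limma, it was -0.34 between Sirt2-/- and Control and -0.57 between CE and Control. The interaction of genotype and cold for Rpia was 1.05 on the log2 scale (95% interval -0.11 to 2.20, edgeR adjusted p = 0.636) and 0.56 on log2(FPKM + 1) in limma. Rpia had 56 to 362 counts per library, the lowest depth among the members together with G6pdx at 80 to 453. Its main transcript shared no stretch of at least 150 bases at 95% identity with another gene, but longer transcripts of Rpia shared such stretches with 26 genes, of which 19 were in the table and together held 94.0% to 99.3% of the counts of this family, so that the Rpia values are uncertain where counting could split such reads.

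Rpe encodes ribulose-phosphate 3-epimerase, which feeds xylulose 5-phosphate to transketolase. It was the steadiest member, with 7.65 to 10.6 FPKM in Control, 8.87 to 12.04 in CE, 7.89 to 11.9 in Sirt2-/- and 7.48 to 11.1 in Sirt2-/-/CE. In CE against Control its log2 fold change was 0.25 (95% interval -0.02 to 0.52, edgeR adjusted p = 0.51), and the other 3 pairwise values lay between -0.17 and 0.11. Rpe shares 558 of 3113 exon bases with Kansl1l on the opposite strand, and Kansl1l held 14.2% to 33.2% of the counts of the pair (Kansl1l was chosen after its values were seen).

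Tkt encodes transketolase, the thiamine-dependent enzyme that links pentose phosphates to glycolysis. Its level was 35.4, 34.4, 25.6, 29.3 and 38.1 FPKM in Control replicates 1 to 5 and 34.7, 28.1, 18.3, 24.8 and 33.0 in CE replicates 6 to 10. It was 29.1, 27.6, 23.0, 24.1 and 21.7 FPKM in Sirt2-/- replicates 11 to 15 and 39.6, 32.3, 30.2, 24.6 and 36.0 in Sirt2-/-/CE replicates 16 to 20. By FPKM, Sirt2-/- replicates 13, 14 and 15 lay below every Control mouse. By CPM, Sirt2-/- replicate 12 (85.5) also lay below the lowest Control mouse (91.8). Of the 5 Sirt2-/-/CE mice, 4 lay above every Sirt2-/- mouse. The log2 fold change between Sirt2-/- and Control was -0.51 (95% interval -0.87 to -0.15), with an unadjusted p = 0.00827 and an adjusted p = 0.158 by edgeR, the lowest adjusted p of the members in this comparison. It was -0.33 (adjusted p = 0.819) with the clock score as a covariate and -0.48 (adjusted p = 0.0857) with the length score as a covariate. Between Sirt2-/-/CE and Sirt2-/- the value for Tkt was 0.47 (95% interval 0.11 to 0.83, edgeR adjusted p = 0.572), and the interaction of genotype and cold was 0.69 (95% interval 0.18 to 1.19), with an unadjusted p = 0.0107 and an adjusted p = 0.457 by edgeR. Library quality weights in limma voom gave 0.19 for the former and 0.38 for the latter.

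Taldo1 encodes transaldolase, the second transferase of the nonoxidative branch. Its level was 50.3 to 76.7 FPKM in Control, 58.8 to 77.1 in CE, 50.7 to 76.9 in Sirt2-/- and 62.7 to 99.4 in Sirt2-/-/CE. All 5 Sirt2-/-/CE mice lay above 4 of the 5 Sirt2-/- mice, and Sirt2-/- replicate 14 with 76.9 FPKM overlapped them. The log2 fold change between these groups was 0.41 (95% interval 0.06 to 0.75, edgeR adjusted p = 0.61), and without Sirt2-/-/CE replicate 16 it was 0.23. With the length score as a covariate it was 0.276. For cold averaged over both genotypes, the log2 fold change was 0.28 (95% interval 0.03 to 0.52, edgeR adjusted p = 0.472). Without Sirt2-/-/CE replicate 16, that value was 0.187.

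**Figure D2:**
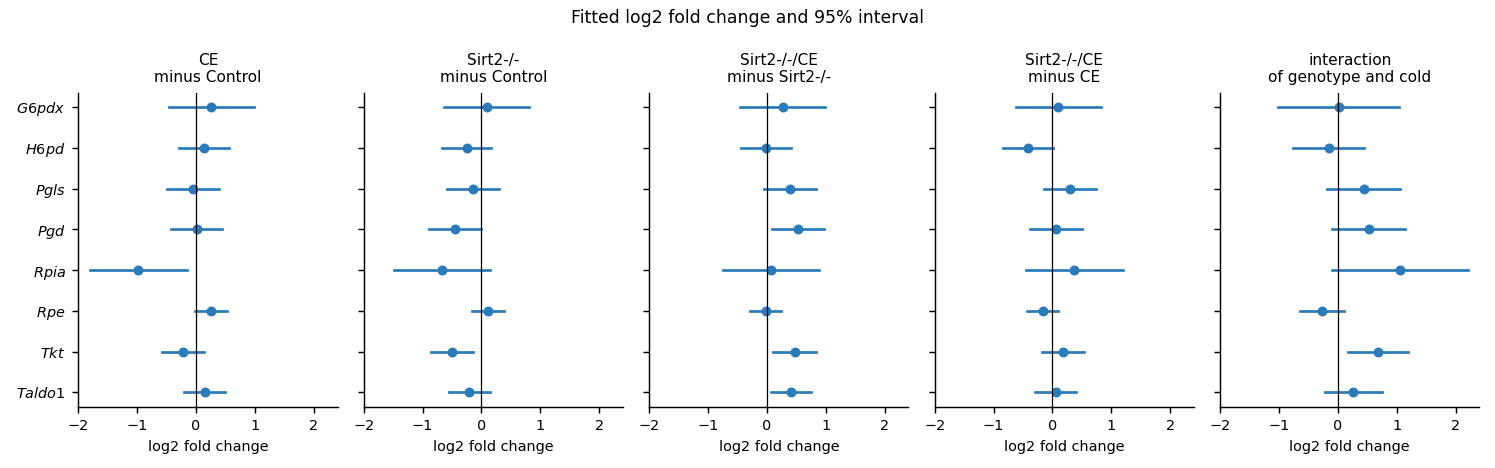
Log2 fold change of each member (point) with its 95% interval (line) from the edgeR fit in the 4 pairwise comparisons and in the interaction of genotype and cold. Most intervals crossed 0. Those clear of it were Rpia in CE minus Control, Tkt and Pgd in Sirt2-/- minus Control, Tkt, Pgd and Taldo1 in Sirt2-/-/CE minus Sirt2-/-, and Tkt in the interaction, and none of these passed the adjusted threshold.

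The median log2 fold change of the 8 members was -0.23 between Sirt2-/- and Control, where the median of all genes was 0.02, and 6 of the 8 members lay below 0. Between Sirt2-/-/CE and Sirt2-/- it was 0.33 beside 0.01 for all genes, and 6 of 8 lay above 0. Both comparisons share the Sirt2-/- mice, so that the values are given side by side and their opposite signs are no independent result. Without Sirt2-/-/CE replicate 16, the latter comparison gave 0.132 for Pgls (0.389 with it), 0.231 for Taldo1 (0.408) and 0.35 for Tkt (0.471). It gave 0.127 for H6pd (-0.0204), 0.293 for G6pdx (0.271), 0.54 for Pgd (0.53) and 0.0714 for Rpia (0.0696). The medians were not computed without single mice. For CE against Control the median was 0.07 beside -0.01, for Sirt2-/-/CE against CE 0.09 beside 0.02, and for the interaction 0.35 beside 0.00. Without Sirt2-/-/CE replicate 16, the interaction of Pgls went from 0.441 to 0.185, Taldo1 from 0.264 to 0.0884 and Tkt from 0.686 to 0.568. That of H6pd went from -0.156 to -0.00782. With library quality weights in limma voom, the interaction was 0.0565 for Pgd (0.521 by edgeR), 0.235 for Pgls, 0.0881 for Taldo1 and 0.0336 for H6pd. Kupffer cell and macrophage markers, 5 of 6 found in the table and none at 0, summed to 33.3 to 122 FPKM in Control, 31.4 to 142 in CE, 87.8 to 147 in Sirt2-/- and 107 to 149 in Sirt2-/-/CE. Endothelial cell markers, 5 of 5 found and none at 0, summed to 14.5 to 72.4, 9.04 to 50.6, 31.2 to 76.3 and 54.2 to 79.6 FPKM in the same order, with medians of 45.1, 30.0, 68.8 and 73.1. The part of these markers in the values of the members was not tested.

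The spread between mice of one group also differed among the members. The coefficient of variation of CPM, averaged over the 4 groups, was 43.5% for Rpia and 39.2% for G6pdx, which was above 91.4% and 88.5% of the 10591 genes whose mean reached 1 FPKM. For Rpe it was 12.2%, above only 10.3% of these genes, and for the other 5 members it lay between 17.5% and 23.9%, near the median of 21.6%. Rpia and G6pdx also had the fewest counts of the members. From the lowest to the highest of the 20 mice, CPM differed 4.83-fold for G6pdx and 4.82-fold for Rpia but 1.62-fold for Rpe. Between groups, the highest mean CPM was 1.97-fold the lowest for Rpia, with Control highest, and 1.19-fold to 1.44-fold for the other 7 members. Sirt2-/- had the lowest mean CPM of the 4 groups for Pgls, Pgd, Tkt and Taldo1, but single mice of neighbouring groups overlapped for each member. For Pgls, CE was lowest once CE replicate 8 was left out. By mean FPKM, CE was lowest for Pgls with all mice kept (33.6, against 35.4 in Sirt2-/-).

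**Figure D3:**
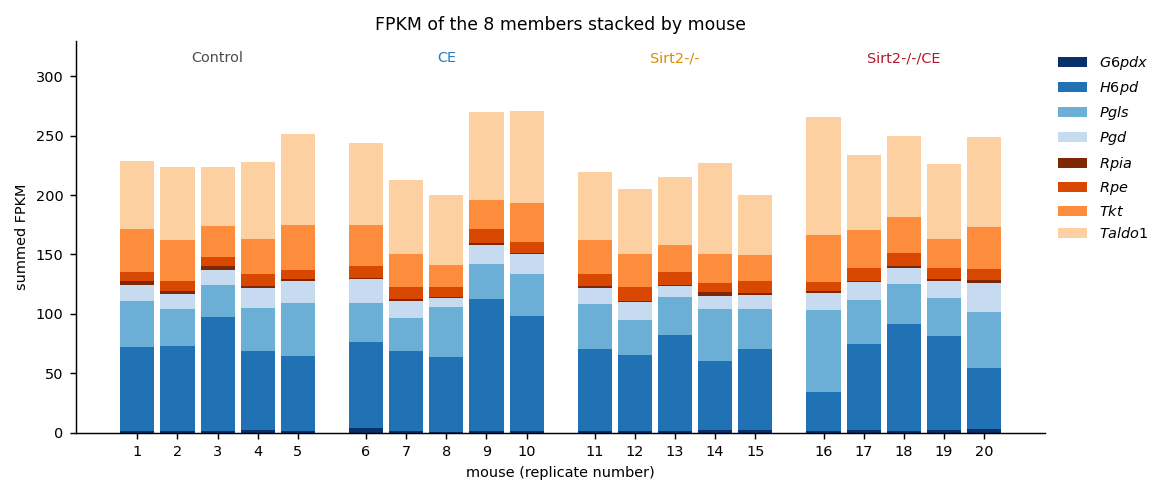
FPKM of the 8 members stacked for each mouse, with the oxidative branch in blue and the nonoxidative branch in orange. The share of the oxidative branch was lowest in Sirt2-/-/CE replicate 16 (44.3%), and the sum was 200.3 to 227.1 FPKM in Sirt2-/- and 226.1 to 265.9 in Sirt2-/-/CE.

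Summed over the 8 members, the level was 231.2 ± 11.7 FPKM in Control, 239.4 ± 32.5 in CE, 213.5 ± 10.7 in Sirt2-/- and 244.7 ± 15.5 in Sirt2-/-/CE (SD, n = 5 each). The oxidative branch, G6pdx, H6pd, Pgls and Pgd, took 54.4 ± 4.05%, 55.2 ± 2.60%, 54.9 ± 2.88% and 52.3 ± 4.97% of this sum in the same order (SD, n = 5 each). Much of the oxidative share was H6pd, and without it the other 3 oxidative genes took 22.5 ± 3.05%, 21.4 ± 3.05%, 23.1 ± 2.14% and 25.2 ± 5.57% (SD, n = 5 each). In Sirt2-/-/CE, replicates 16 and 20 had 32.2% and 29.8%, and the other 3 mice 19.2% to 23.5%. The lowest oxidative share, 44.3%, was in Sirt2-/-/CE replicate 16, in which Pgls and Taldo1 were highest and H6pd lowest of the 20 mice.

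To ask whether members varied together between mice of one group, log2 CPM was correlated for all 28 pairs after subtraction of the group means, with mice permuted within groups in 100000 draws. Benjamini-Hochberg adjustment over the 28 pairs left 4 pairs at an adjusted permutation p under 0.05 by Pearson's r. Pgls and Taldo1 had r = 0.806 (permutation p = 0.00086, adjusted 0.0241) and Spearman's rho = 0.767 (permutation p = 0.00118, adjusted 0.033). H6pd and Pgls had r = -0.741 (permutation p = 0.00284, adjusted 0.0311) and rho = -0.629 (permutation p = 0.00848, adjusted 0.0571). Within the pathway's cytosolic core, G6pdx and Pgd had r = 0.714 (permutation p = 0.0052, adjusted 0.0364) and rho = 0.617 (permutation p = 0.00899, adjusted 0.0571), and Pgd and Tkt had r = 0.686 (permutation p = 0.00333, adjusted 0.0311) and rho = 0.633 (permutation p = 0.00607, adjusted 0.0571). Without the 2 mice farthest from the median of the first gene, r was 0.821 for Pgls and Taldo1, -0.545 for H6pd and Pgls, 0.579 for G6pdx and Pgd, and 0.594 for Pgd and Tkt. Rpia had no such partner: its r with the other members lay between -0.547, with Rpe, and 0.28, with G6pdx.

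**Figure D4:**
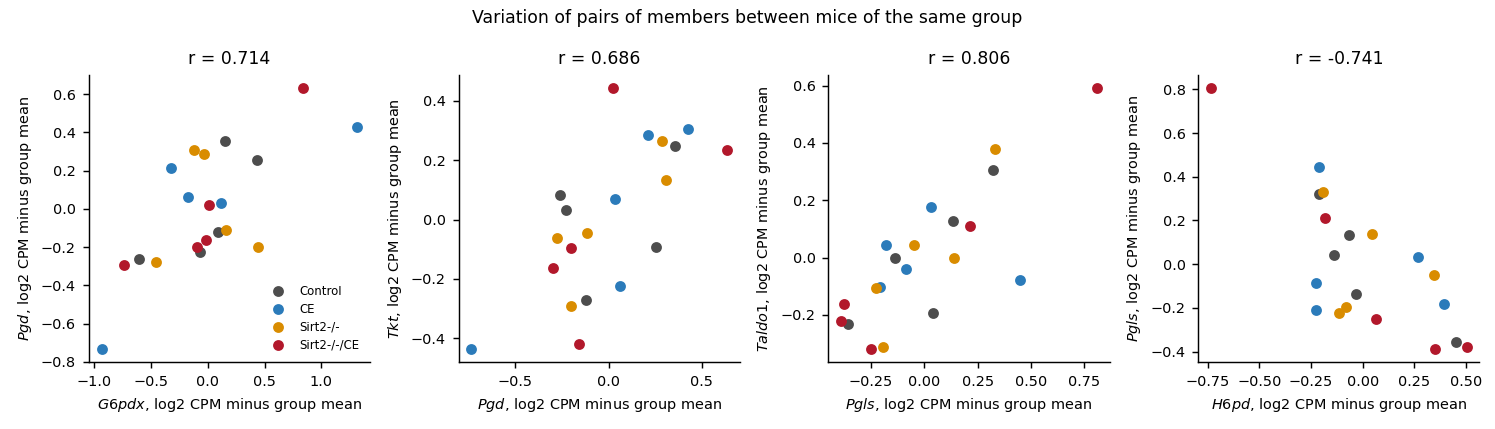
Log2 CPM minus the group mean for 4 pairs of members, 1 point per mouse colored by group. G6pdx and Pgd (r = 0.714), Pgd and Tkt (r = 0.686) and Pgls and Taldo1 (r = 0.806) were high in the same mice, while H6pd and Pgls (r = -0.741) were opposed.

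The length score of the library was related to the genes of some of these pairs. It correlated with Pgls at r = 0.877 (permutation p = 9e-05, adjusted 0.00144 over 16 relations of 2 scores with 8 members) and with Taldo1 at r = 0.843 (permutation p = 0.00092, adjusted 0.00736). With H6pd it correlated at r = -0.686 (permutation p = 0.0073, adjusted 0.0389), and rho was 0.789, 0.699 and -0.668 for these 3 genes (permutation p = 0.00081, 0.00328 and 0.00355, adjusted 0.013, 0.0189 and 0.0189). Without the 2 mice farthest from its median, r was 0.78, 0.638 and -0.487. With Pgd it was 0.132 (adjusted permutation p = 0.725) and with G6pdx 0.146 (adjusted permutation p = 0.725). After the score was regressed out, r was 0.261 for Pgls and Taldo1 and -0.398 for H6pd and Pgls, beside 0.709 for G6pdx and Pgd and 0.696 for Pgd and Tkt, where the adjusted permutation p was 0.0869 for each. For Tkt, Rpia and Rpe, r with the score was 0.389, 0.292 and -0.469 (adjusted permutation p = 0.4, 0.589 and 0.117). By the exon length on which the score was built, Taldo1 is the shortest member. It is followed by G6pdx with 3080 bases, Rpe with 3113, Pgls with 3770 and H6pd with 5236. Rpia with 5359, Pgd with 6447 and Tkt with 7355 are the longest. The sign of r did not follow the order of these lengths. In their main transcripts, Pgls has 893 bases, Taldo1 1229, Rpia 1829, Pgd 2218, G6pdx 2652, Rpe 2692, Tkt 3223 and H6pd 4745. By that length, Pgls and Taldo1, with the highest r, are the shortest, and H6pd, with the lowest r, is the longest. The part of length in these relations was not tested. Correlations of the clock score with the members had an adjusted permutation p of at least 0.287.

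**Figure D5:**
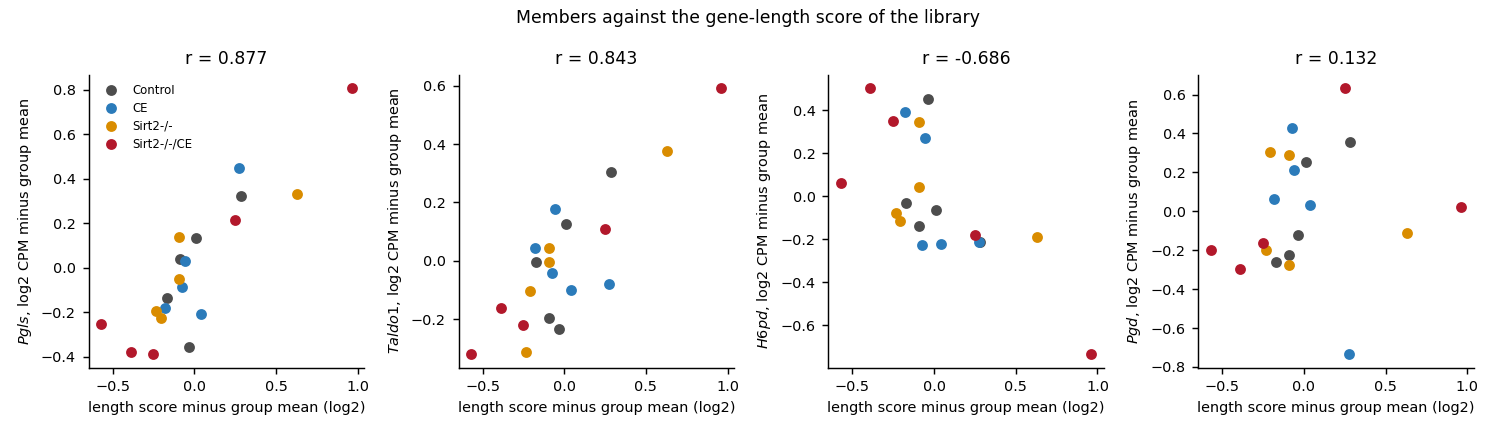
Log2 CPM minus the group mean of Pgls, Taldo1, H6pd and Pgd against the length score minus its group mean, 1 point per mouse. Pgls (r = 0.877) and Taldo1 (r = 0.843) were higher and H6pd (r = -0.686) lower in libraries with a high score, with Sirt2-/-/CE replicate 16 at the far right, whereas Pgd had r = 0.132.

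Among the same 10591 genes, those most like each member over the 20 mice were found by Pearson's r of log2 CPM, given as a description. For G6pdx they were Pkm (r = 0.791), which encodes a pyruvate kinase of glycolysis, Gm4735 (0.74) and Plp2 (0.722). Pkm stood at 62.8 FPKM in CE replicate 6, the mouse with the highest G6pdx, and at 2.23 to 15.1 in the other 19, and without the 2 mice farthest from the median of G6pdx its r was 0.675. For Pgd they were Vcpkmt (0.831), the mevalonate pathway gene Pmvk (0.818) and the DNA replication gene Mcm5 (0.799). For Tkt they were the ATP synthase gene Atp5a1 (0.875), St7 (0.858) and Asgr2 (0.846), which encodes a subunit of the hepatocyte asialoglycoprotein receptor. For Rpia they were Minpp1 (0.81), the hepcidin gene Hamp2 (0.764) and Khk (0.764), which encodes ketohexokinase of fructose metabolism. The leading genes were Tceb2 (0.926), Atox1 (0.916) and Mrps24 (0.913) for Pgls, Tmem205 (0.922), Ndufs8 (0.919) and Prdx5 (0.904) for Taldo1, Atxn7l3b (0.955), Iigp1 (0.914) and Tor1aip2 (0.901) for H6pd, and BC003331 (0.832), Itfg1 (0.82) and Dnajc1 (0.811) for Rpe. Pgls, Taldo1 and H6pd were the members that correlated with the length score. Without the 2 mice farthest from the median of the member, r of the 3 leading genes was 0.782 to 0.857 for Pgls. It was 0.776 to 0.817 for Taldo1 and 0.827 to 0.922 for H6pd. The part of the length score in these values was not tested. No member appeared among the 3 leading genes of another.

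Of 24 genes around the pathway, for sugar acids, ribose and the glycolytic intermediates it shares, 19 were tested and 0 passed the edgeR threshold in any comparison. At an unadjusted p under 0.05, 1 was higher and 5 were lower in Sirt2-/- than in Control (14.9% of all genes), and 6 were higher and 0 lower in the interaction (8.34% of all genes), with Shpk the lowest p of both. In Sirt2-/-/CE against Sirt2-/-, 2 were higher and 1 was lower (7.25% of all genes). In CE against Control (10.7% of all genes) and for cold (9.48%), 0 were higher and 1 was lower. There were 0 in Sirt2-/-/CE against CE (6.09% of all genes) and for genotype (13.8%). DESeq2 called Shpk in CE against Control (adjusted p = 0.0281), where it called 169 of all 15616 genes. In Sirt2-/- against Control it called Shpk and Rgn (adjusted p = 0.0107 and 0.0377), beside 607 of all genes. Shpk encodes sedoheptulokinase, which draws on an intermediate of the nonoxidative branch, and had log2 fold changes of -0.41 for CE against Control (edgeR adjusted p = 0.191) and -0.40 for Sirt2-/- against Control (edgeR adjusted p = 0.0726). Its level was 16.1 to 24.2 FPKM in Control and 13.8 to 19.1 in the other 15 mice (Shpk was chosen after its values were seen). Rgn encodes regucalcin, a gluconolactonase, and was 520 to 598 FPKM in Control and 456, 461, 473, 196 and 143 in Sirt2-/- replicates 11 to 15. The low Rgn mice were replicates 14 and 15, and the log2 fold change of -0.86 did not pass (edgeR adjusted p = 0.113). G6pd2, the autosomal copy of glucose-6-phosphate dehydrogenase, had 1 count in 1 library (0.0128 FPKM) and 0 in the other 19, so it was not detectable at this depth.

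Of 13 genes for other sources of NADPH, 12 were tested. By edgeR, 1 fell and 0 rose in Sirt2-/- against Control (0.89% of all genes called), while 0 passed in the other comparisons. Mthfd2, a mitochondrial folate enzyme, was called in CE against Control by DESeq2 (1.65, adjusted p = 0.0421). It was also called there by limma voom with library quality weights (2.15, adjusted p = 0.0146), where edgeR gave 1.64 (adjusted p = 0.202). These tools called 169 and 540 of all 15616 genes in that comparison. By voom, Mthfd2 was called also in Sirt2-/- against Control (1.75, adjusted p = 0.0275), beside 906 of all genes. The gene that fell was Aldh1l1, which encodes the formyltetrahydrofolate dehydrogenase of folate metabolism, at 305, 322, 394, 328 and 334 FPKM in Control replicates 1 to 5 and 229, 186, 263, 229 and 241 in Sirt2-/- replicates 11 to 15. All 5 Sirt2-/- mice lay below all Control mice, and these groups did not overlap in CPM for 3.61% of all genes. The log2 fold change of Aldh1l1 was -0.68 (edgeR adjusted p = 0.0407). Leaving out 1 mouse at a time gave -0.76 to -0.59, and the call was lost in 10 of these 20 fits: those without Control replicate 1, 2, 3 or 5, CE replicate 6 or 7, or Sirt2-/- replicate 11, 12, 14 or 15. In separate fits, it was also lost with the clock score as a covariate (-0.62, edgeR adjusted p = 0.321), without the filter on low counts (-0.69, edgeR adjusted p = 0.0663) and with only these 2 groups in the fit (-0.68, edgeR adjusted p = 0.103). For genotype averaged over both treatments, DESeq2 and voom also called Aldh1l1 (adjusted p = 0.0181 and 0.0203), beside 304 and 263 of all genes. Me1, the cytosolic malic enzyme, was 23.4 to 52.8 FPKM in Control, 25.4 to 47.9 in CE, 29.3 to 39.8 in Sirt2-/- and 37.5 to 60.6 in Sirt2-/-/CE, and its log2 fold change between the last 2 groups was 0.62 (edgeR adjusted p = 0.543).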

How the data were processed

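Liver RNA of 20 mice was enriched on oligo(dT) beads and sequenced on an Illumina NovaSeq, with 1 library per mouse. The authors deposited 1 table with whole-number counts per gene and mouse and with FPKM values scaled to gene length and depth; both were used as deposited. The submitters' processing notes name build mm10; the aligner, counting tool, annotation and handling of strand are not given in the sources used here. The 8 members and the lists were chosen with earlier results of these data known. Counts were analysed in R 4.3.3 with edgeR 4.0.16 (filterByExpr with a minimum count of 10 and a total of 15, TMM scaling, quasi-likelihood F-test, 1 fit of 4 groups, two-sided, Benjamini-Hochberg adjustment over 15616 genes). Intervals of log2 fold changes came from that fit. Lines without a gene, 9 in all, were left out, and no 2 libraries agreed within counting noise. Levels between genes and of single mice were given as FPKM, and overlap shares, spread, outlying mice and correlations used CPM. DESeq2 1.42.0, limma 3.58.1 and the settings below were alternatives, and the procedure was tested on simulated data. Named were the members, Sirt2, G6pd2, Rgn, Me1, listed genes called in any comparison and the 3 genes most like each member; other names were chosen after their values were seen. Promoter windows came from RefSeq, gene positions from GENCODE vM21.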

Additional observations from a re-analysis of the deposited data

Results flagged for a closer look

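In 32 groups of 5 values (8 members in 4 groups), 3 mice stood apart from the others of their group by Dixon's criterion (gap over range above 0.71), where chance alone gives about 1 in 20 groups. G6pdx in CE replicate 6 was 10.9 CPM, with the other 4 mice at 2.26 to 4.74. H6pd in Control replicate 3 was 476 CPM, with the others at 301 to 341. Pgd in Sirt2-/-/CE replicate 20 was 57.2 CPM, with the others at 30.0 to 37.4.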

How the results depend on the processing

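Of 592 log2 fold changes of members under the alternatives, 559 kept their direction and their side of the threshold, 32 changed sign without passing it and 1 passed it (Rpia in Sirt2-/- against Control with voom weights, so that 1 member was called there); of 1120 with 1 mouse left out, 1081 kept both and 39 changed sign. The cause was not tested. No paired analysis was possible because the groups share no replicate numbers.

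Changed signs, as log2 fold changes near 0 in most cases, were as follows. With the clock score as a covariate, Pgls in CE against Control was 0.014, G6pdx in Sirt2-/- against Control -0.090 and G6pdx for genotype -0.0057. With the length score as a covariate, an alternative chosen after seeing the data, Sirt2-/-/CE against Sirt2-/- gave H6pd 0.046, Rpia -0.029 and Rpe 0.022, Taldo1 in Sirt2-/-/CE against CE was -0.080 and the interaction of G6pdx -0.063. By library size only, Rpia in Sirt2-/-/CE against Sirt2-/- was -0.038, genotype gave Rpe 0.093 and Taldo1 0.029, and the interaction of G6pdx was -0.092; with at least 10 counts in every library that interaction was -0.0092. With limma on log2(FPKM + 1) and log2(FPKM + 0.1), Pgd in CE against Control was -0.026 and -0.031, Rpia in Sirt2-/-/CE against Sirt2-/- -0.016 and -0.0090, Rpe for genotype 0.074 and 0.081, Taldo1 for genotype 0.018 and 0.018, and H6pd for cold -0.0014 and -0.0025. With voom weights, H6pd in Sirt2-/-/CE against Sirt2-/- was 0.20, Sirt2-/-/CE against CE gave G6pdx -0.14, Pgd -0.15, Tkt -0.062 and Taldo1 -0.14, genotype gave Pgls -0.075 and Rpe 0.080, and the interaction gave G6pdx -0.31 and H6pd 0.034.

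With 1 mouse left out, values that crossed 0 ranged as follows. G6pdx ranged from -0.24 (without CE replicate 6) to 0.44 in CE against Control, -0.037 to 0.20 in Sirt2-/- against Control, -0.17 to 0.60 in Sirt2-/-/CE against CE, -0.042 to 0.34 for genotype and -0.25 to 0.51 for the interaction. H6pd ranged from -0.16 to 0.13 in Sirt2-/-/CE against Sirt2-/- and from -0.010 to 0.13 for cold. Pgd ranged from -0.10 to 0.15 in CE against Control and from -0.13 to 0.18 in Sirt2-/-/CE against CE, and Pgls from -0.19 to 0.035 in CE against Control and from -0.054 to 0.15 for genotype. Rpe ranged from -0.098 to 0.034 in Sirt2-/-/CE against Sirt2-/- and from -0.057 to 0.018 for genotype, Rpia from -0.24 to 0.40 in Sirt2-/-/CE against Sirt2-/- and Taldo1 from -0.13 (without Sirt2-/-/CE replicate 16) to 0.12 in Sirt2-/-/CE against CE.

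Of the other listed genes, DESeq2 and voom each called 2 in CE against Control (Mthfd2 and Shpk) and 3 in Sirt2-/- against Control, and 1 for genotype (Aldh1l1). In Sirt2-/- against Control, 2 were called with the length score as a covariate, and 0 without the filter on low counts, with only the groups compared or with the clock score; with 1 mouse left out, 0 to 1 were called. Genes called over the whole table in Sirt2-/- against Control numbered 139, and 0 (clock score as a covariate) to 906 (voom weights) under the alternatives and 5 (without Control replicate 2) to 375 (without Sirt2-/- replicate 13) with 1 mouse left out. In CE against Control the 1 gene became 169 with DESeq2 and 540 with voom weights and 0 to 68 with 1 mouse left out; for genotype the 29 became 2 (clock score) to 304 (DESeq2) and 10 to 117, for cold the 0 became at most 76 (DESeq2) and 16, for the interaction at most 41 (DESeq2) and 2, for Sirt2-/-/CE against CE the 2 became 0 to 31 (DESeq2) and 1 to 6, and for Sirt2-/-/CE against Sirt2-/- the 0 became at most 7 (DESeq2).

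Pairs of members at an adjusted permutation p under 0.05 numbered 4 by Pearson's r, 1 by Spearman's rho, 2 on log2(FPKM + 1), 5 without Sirt2-/- replicate 14, the library farthest from the others (Tkt and Taldo1 added, adjusted permutation p = 0.0314), and 0 with the length score removed. By CPM in place of FPKM, the oxidative share was 65.6%, 67.7%, 66.7% and 61.8% in Control, CE, Sirt2-/- and Sirt2-/-/CE. At this depth G6pd2 was not detectable, and 5 mice per group left intervals of up to 0.82 on either side of the log2 fold change of Rpia in a pairwise comparison.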
